A study of Homo sapiens with 2 samples.

Results

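The zinc finger genes of chromosome 19 were taken as the protein-coding genes on that chromosome whose symbol is ZNF followed by digits and optional letters, in GENCODE release 44 lifted to GRCh37 (hg19). The rule gave 246 genes of 19802 protein-coding genes in the annotation. They lay in 16 groups separated by gaps of more than 1 Mb, and 7 of these groups held at least 10 genes and 225 of the genes in all. NRF-1 occupancy was measured by chromatin immunoprecipitation and sequencing in U251, an established human glioblastoma cell line, after transfection of a non-targeting siRNA (siControl) or of one that targets AATF (siAATF). Both groups were otherwise the same line, and the design text of the series names U138 where the sample labels name U251. The libraries were prepared by ChIPmentation, in which a transposase adds the adapters on the immunoprecipitated chromatin. The question of the experiment was whether depletion of AATF, a transcriptional cofactor, changes the occupancy of NRF-1 on chromatin.

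1 peak list per condition was analysed, with 18014 peaks in siControl and 18454 in siAATF, of which 1299 and 1294 were on chromosome 19. The protocol mentions duplicate immunoprecipitations, yet the labels name replicate 1 alone, and whether reads of duplicates were combined before peak calling is not given in the sources used here. With 1 list per condition there is no spread between replicates, and no difference between the lists could be tested. The depth of the libraries is unknown, and a peak list holds no expression level, so the depletion of AATF itself could not be checked in these data. A gene was given a promoter peak if a peak overlapped the 1 kb on either side of any of its protein-coding transcript starts. The best promoter peak was the one with the highest −log10 q, where q is the false discovery rate set by MACS2. Peaks were also ordered within their own list by fold enrichment over the local background, as a percentile rank that runs from 0 (weakest) to 100 (strongest). Fold enrichment was never compared between lists. Intervals given for shares are exact binomial 95% intervals and cover counting error only, since neighbouring zinc finger genes share ancestry and sometimes a peak.

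Genes of this family encode proteins with tandem C2H2 zinc fingers, each of which contacts a few bases of DNA. Many carry an amino-terminal KRAB domain that recruits TRIM28, also called KAP1, and with it the histone methyltransferase SETDB1 and HP1 proteins, which silence transposable elements and other sequences. The genes multiplied by tandem duplication in primates and other mammals, and human chromosome 19 carries the largest clusters. NRF-1 binds as a dimer to a GC-rich palindrome in promoters, including those of nuclear genes for mitochondrial proteins.

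The palindrome is the word GCGCA followed directly by its reverse complement, and it is called the core here. An exact core was found in the best promoter peak of 9 of the 183 genes with a siControl peak (4.92%) and of 9 of 185 in siAATF (4.86%), against 3.95% and 4.01% of the best promoter peaks of all coding genes. The 9 sites are shown because they are the plainest match to the factor's own word. Each line gives 30 bases from the GRCh37 assembly on the strand of the gene, 5′ to 3′, with the core in capitals.
ZNF428: cagtccctgcGCGCATGCGCtttgctcagg
ZNF559: gtctgcgtggGCGCATGCGCataacggccg
ZNF699: gtgtgcttctGCGCATGCGCgagtcgacag
ZNF180: tgtccgatgcGCGCATGCGCagggtctacg
ZNF285: aggcctccttGCGCATGCGCcgtggtactg
ZNF567: gcgtgggagtGCGCATGCGCagacgcccgg
ZNF331: gggtgcgcgtGCGCATGCGCgctggcctcc
ZNF607: tggccgatctGCGCATGCGCactcgaggca
ZNF653: tgttggttgtGCGCATGCGCagtttccatt

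In the order of the lines, the 30 bases lie on hg19 at chr19:44124203-44124232 (minus strand), chr19:9434841-9434870 (plus), chr19:9420497-9420526 (minus), chr19:45004269-45004298 (minus), chr19:44905771-44905800 (minus), chr19:37178494-37178523 (plus), chr19:54041342-54041371 (plus), chr19:38210667-38210696 (minus) and chr19:11616729-11616758 (minus). The site of ZNF559 was centred on the canonical transcript start, in an exon that is coding in some transcripts, and that of ZNF699 lay 2 bp downstream of its start in an exon. The sites of ZNF567, ZNF285, ZNF607, ZNF331 and ZNF653 were 6, 12, 20, 43 and 90 bp upstream. That of ZNF180 was 290 bp downstream in an exon that some transcripts code through, and that of ZNF428 was 437 bp upstream, outside annotated transcripts. Thus 7 of the 9 exact cores were within 100 bp of a canonical start. The bases on either side of the core were different in each gene.

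Allowing 1 mismatch, the core was present in 41 of 183 best promoter peaks in siControl (22.4%) and 41 of 185 in siAATF (22.2%), and in 24.2% and 24.4% over all coding genes. Unless called distinct, best promoter peaks are counted once for each gene, so a peak shared by 2 genes counts for each of them. A control palindrome with the same base composition, made of GCCGA followed by its reverse complement, was present at up to 1 mismatch in 7 of the 183 peaks. In 26 of the 32 peaks whose closest site had 1 mismatch (81.3%), the mismatch fell on the central bases 5 and 6, counted from 1 at the 5′ end of the core on the gene strand. Over all coding genes the central bases held 71.7% of such mismatches. The commonest changes in the zinc finger genes were A5C in 9 sites and T6G in 8 sites. The 6 sites below belong to the genes with the strongest siControl promoter peaks among those that held a core, again with the core in capitals and the strand of the gene.
ZNF583: tgaaccagctGCGCCTGCGCaggtggaacg
ZNF576: atgagtcaacGCGCCTGCGCgccacgagag
ZNF865: ccgagtcagtGCGCAAGCGCatttcccccc
ZNF667: actgcgtagtGCGCACGCGCgggtgggcgg
ZNF787: ggcggcgggcGCGCGTGCGCgctgctgggg
ZNF554: ggttcggggtGCGCAGGCGCagtgccgagt

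These lie at chr19:56915437-56915466 (plus), chr19:44100419-44100448 (plus), chr19:56116852-56116881 (plus), chr19:56989198-56989227 (minus), chr19:56632402-56632431 (minus) and chr19:2819846-2819875 (plus). Their changes from the core are A5C in ZNF583 and ZNF576, T6A in ZNF865, T6C in ZNF667, A5G in ZNF787 and T6G in ZNF554. All 6 changes are at the centre and leave the other bases of the core intact. ZNF787 held 5 sites at up to 1 mismatch within its peak and ZNF576 and ZNF667 held 3 each, and the one closest to the middle of the peak is shown.

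NRF-1 promoter peaks were found at 183 of the 246 zinc finger genes in siControl (74.4%, 68.5 to 79.7) and at 185 in siAATF (75.2%, 69.3 to 80.5). Over all coding genes the shares were 61.1% and 60.7%. The other 1190 coding genes of chromosome 19 had a share of 60.1% in siControl, and the 263 ZNF genes on other chromosomes had one of 79.1%. So the chromosome 19 genes stood above the rest of their chromosome and near the ZNF genes elsewhere, as counts with no test. The count was the same, 183, with windows of 500 bp and 2 kb, and 174 of the 183 best peaks had their midpoint within 500 bp of the canonical start.

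The peaks were of moderate strength. With a −log10 q of at least 5, the count was 135 genes in siControl (54.9%) and 152 in siAATF (61.8%), where coding genes as a whole had 51.5% in both lists. The median −log10 q of the best promoter peak was 13.7 in siControl, where all coding genes had 18.1 and the other genes of chromosome 19 had 26.2. The median percentile rank by fold was 59.6 in siControl and 60.4 in siAATF, against 63.2 and 64.3 over all coding genes. The median width was 751 bp, against 856 bp over all coding genes in siControl. Zinc finger promoters thus carried a peak more often than the average coding gene, with a lower median −log10 q and a narrower peak.

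Several genes shared a peak. The 183 siControl genes had 176 distinct best peaks, since 14 of them lay in pairs on 1 peak, such as ZNF565 with ZNF146 and ZNF529 with ZNF382. In siAATF 16 genes were paired and 177 peaks were distinct. A promoter window was shared with a coding gene outside the symbol rule in 29 of the 246 genes, and without them the siControl share was 71.4%.

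**Figure D1:**
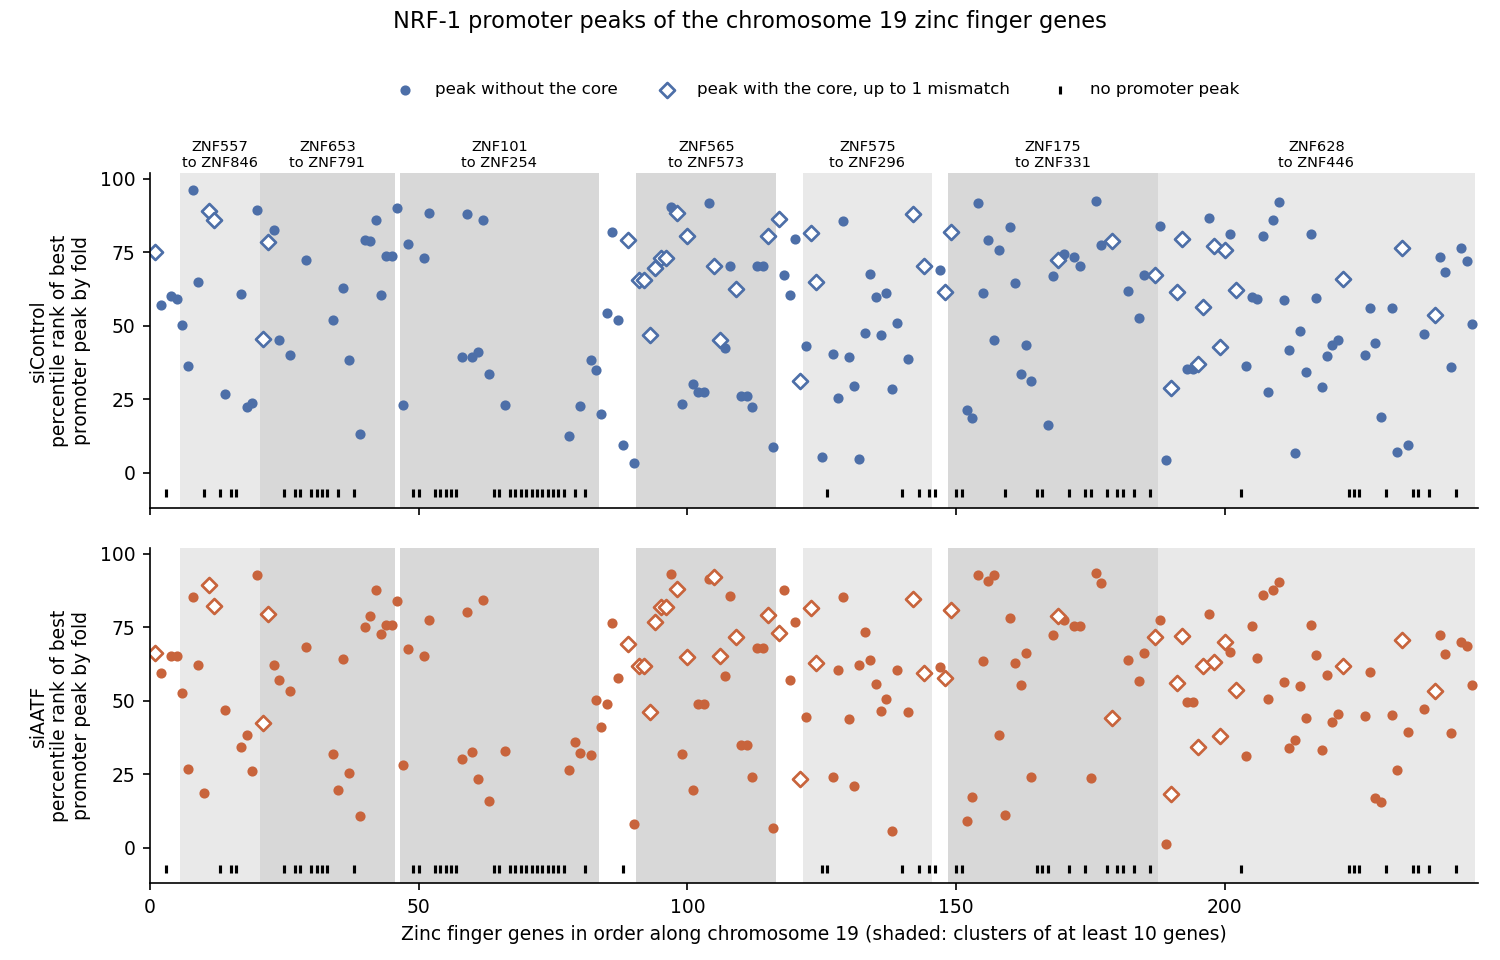
Percentile rank by fold enrichment of the best NRF-1 promoter peak (y axis) of each of the 246 zinc finger genes in order along chromosome 19 (x axis), with siControl above and siAATF below. Open diamonds are peaks that hold the core with up to 1 mismatch, ticks at the foot are genes with no promoter peak, and the shaded clusters show the dense ticks of ZNF101 to ZNF254 (15 of 37 genes with a siControl peak) beside the unbroken ZNF565 to ZNF573 (26 of 26).

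The strongest promoter peak of the family was that of ZNF583. It had a −log10 q of 110 (siControl) and 87.9 (siAATF), and its percentile rank by fold was 77.02 and 63.2. ZNF576, which shares its promoter region with IRGQ and SRRM5, had a −log10 q of 89.5 and 87.7. ZNF420, a KRAB zinc finger gene also known as APAK, had a −log10 q of 88.5 and 83.4 and a percentile rank of 91.8 and 91.6. The 3 genes led both lists of zinc finger promoters by −log10 q.

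ZNF497 followed with a −log10 q of 86.1 in siControl and 77.03 in siAATF, then ZNF865 with 86.0 and 75.5. ZNF667 had 84.4 and 75.3, ZNF787 had 83.4 and 76.9, and ZNF554 had 82.4 and 66.0. All 8 values were lower in siAATF, as were most strong peaks of these lists: of the coding genes with a siControl −log10 q of 20 or more, 19.7% were higher in siAATF. The fold and the −log10 q did not order the genes alike: ZNF787 spanned 1737 bp in siControl with a fold enrichment of only 4.98 and a percentile rank of 36.8, while ZNF420 spanned 949 bp with a fold of 9.05.

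2 of these 8 genes, ZNF420 and ZNF497, had no core in their siControl peak even at 1 mismatch. The ETS word CCGGAAG, the centre of the binding site of ETS factors such as GABPA and ELK1, was looked for within 500 bp of the canonical start of both genes. It was found 227 bp downstream of the start of ZNF497 and not in the window of ZNF420.

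Clusters differed in how many of their genes carried a peak. In the cluster from ZNF565 to ZNF573 at 36.7 to 38.3 Mb, 26 of 26 genes had a promoter peak in both lists (exact interval from 86.8%). In the cluster from ZNF101 to ZNF254 at 19.8 to 24.3 Mb, 15 of 37 genes had one in siControl (40.5%, 24.8 to 57.9) and 16 in siAATF (43.2%). The siControl intervals of these clusters do not overlap, but neighbouring genes are not independent draws, and the intervals do not account for that. Outside the ZNF101 to ZNF254 cluster, 168 of 209 genes had a siControl peak (80.4%).

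The other clusters lay between. The counts in siControl and siAATF were 11 and 12 of 15 genes from ZNF557 to ZNF846, 16 and 17 of 25 from ZNF653 to ZNF791, and 20 and 19 of 24 from ZNF575 to ZNF296. They were 26 and 27 of 39 from ZNF175 to ZNF331, and 50 and 50 of 59 from ZNF628 to ZNF446, the cluster next to the chromosome end. The 21 genes in small groups had 19 and 18. No cluster count differed by more than 1 gene between the lists.

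**Figure D2:**
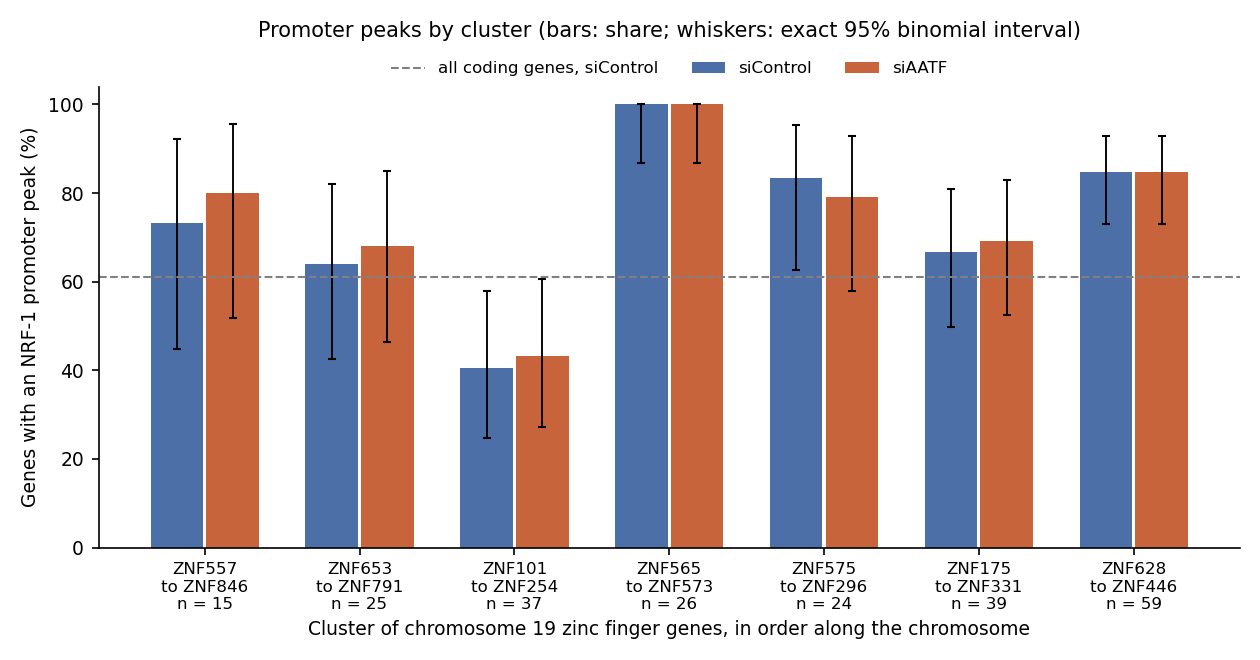
Share of genes with an NRF-1 promoter peak (y axis, percent) in the 7 clusters of at least 10 zinc finger genes (x axis), for siControl and siAATF, with exact 95% binomial intervals as whiskers and the share over all coding genes in siControl (61.1%) as the dashed line. The ZNF101 to ZNF254 cluster is the only one of the 7 below the line, at 40.5% and 43.2%, and ZNF565 to ZNF573 is at 100%.

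Strength followed a different order. The median −log10 q in siControl was 25.5 from ZNF175 to ZNF331, 20.1 from ZNF628 to ZNF446 and 19.98 from ZNF565 to ZNF573. It was 14.2 from ZNF653 to ZNF791, 8.57 from ZNF557 to ZNF846, 6.81 from ZNF575 to ZNF296 and 4.46 from ZNF101 to ZNF254. In siAATF the order of the top changed, with 26.9 from ZNF565 to ZNF573 and 25.2 from ZNF175 to ZNF331. By siControl fold rank the highest median was 67.6, from ZNF653 to ZNF791, beside 67.2 from ZNF175 to ZNF331. The core at up to 1 mismatch was in the best siControl peak of 12 of 26 genes from ZNF565 to ZNF573. It was in that of 12 of 50 genes with a peak from ZNF628 to ZNF446, and these clusters together held 24 of the 41 genes. Some of these genes share a peak, such as ZNF565 with ZNF146 and ZNF529 with ZNF382, so the distinct sites are fewer. The core was present in 0 of 15 peaks from ZNF101 to ZNF254. This allows a share of up to 20% with 3 counts as the limit and up to 21.8% by the exact interval.

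The longest stretch without a promoter peak in either list was 11 consecutive genes, from ZNF43 to ZNF730 at 22.0 to 23.3 Mb in the ZNF101 to ZNF254 cluster. The first 8 along the chromosome are ZNF43, ZNF208, ZNF257, ZNF676, ZNF729, ZNF98, ZNF492 and ZNF99. The next longest stretches were 5 genes from ZNF90 to ZNF66 in the same cluster and 4 genes from ZNF763 to ZNF844 near 12.1 Mb. The ETS word was found within 500 bp of the canonical start of 5 of these first 8 genes, and the sites are shown because they give the sequence next to the starts of genes in this stretch. The lines are aligned on the word, in capitals, 5′ to 3′ on the strand that reads it.
ZNF43: cccgccaaaagCCGGAAGccacggccccct
ZNF208: ccgaccacatcCCGGAAGccgacctgtccc
ZNF257: acccgccaaacCCGGAAGccaccctgtccg
ZNF98: cccgccacatcCCGGAAGccgccctttccg
ZNF492: cccgccacatcCCGGAAGccgccctttccg

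On hg19 these 30 bases lie at chr19:22034874-22034903 (plus strand), chr19:22193747-22193776 (plus), chr19:22235256-22235285 (minus), chr19:22605149-22605178 (plus) and chr19:22817096-22817125 (minus). In each gene this strand is opposite to that of the gene. The word was centred 69 bp upstream of the start of ZNF43, 16 bp upstream for ZNF208 and 15 bp upstream for ZNF257, ZNF98 and ZNF492. The 30 bases of ZNF98 and ZNF492 were identical, and over the 10 pairs of the 5 windows the number of identical bases ran from 17 to 30 with a median of 21. These counts include the 7 bases of the word, which are identical by construction, and promoters of the cluster with a peak were not compared. The word was 15 or 16 bp upstream of the start in 4 of the 5 genes.

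Over the whole family the ETS word was common. It was found within 500 bp of the canonical start in 131 of the 246 genes (53.3%), against 23.9% of other chromosome 19 genes, 41.8% of ZNF genes elsewhere and 22.3% of all coding genes. The word AAGATGGC of YY1, a zinc finger factor of promoters, was found in 46 genes (18.7%), against 8.57%, 7.22% and 7.28%. The word ACTACAANT of ZNF143, another promoter-binding zinc finger factor, was found in 12 genes (4.88%), against 3.34% of all coding genes. The NRF-1 core at up to 1 mismatch was in 42 of these windows (17.1%), against 19.1% of other chromosome 19 genes, 22.8% of ZNF genes elsewhere and 14.2% of all coding genes. All words were searched on both strands, and the windows of duplicated genes are not independent.

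Pooled over the family, the ETS word was in 98 of the 183 genes with a siControl peak (53.6%) and 33 of the 63 without (52.4%). Shares with and without a peak were not compared within clusters. In the ZNF genes elsewhere the word was in 94 of 208 with a siControl peak (45.2%) and 16 of 55 without (29.1%). In the chromosome 19 family the core at up to 1 mismatch was in 37 of the 183 (20.2%) and in 5 of the 63 (7.94%). Clusters differed in these words: the ETS word was in 29 of 37 genes from ZNF101 to ZNF254, 29 of 39 from ZNF175 to ZNF331 and 38 of 59 from ZNF628 to ZNF446, but in 4 of 25 from ZNF653 to ZNF791. Most of the genes with the YY1 word, 25 of 46, were in the ZNF101 to ZNF254 cluster. ZNF415 was the only gene with an exact core in its start window and no peak in either list, and it was picked out after its values were seen.

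**Figure D3:**
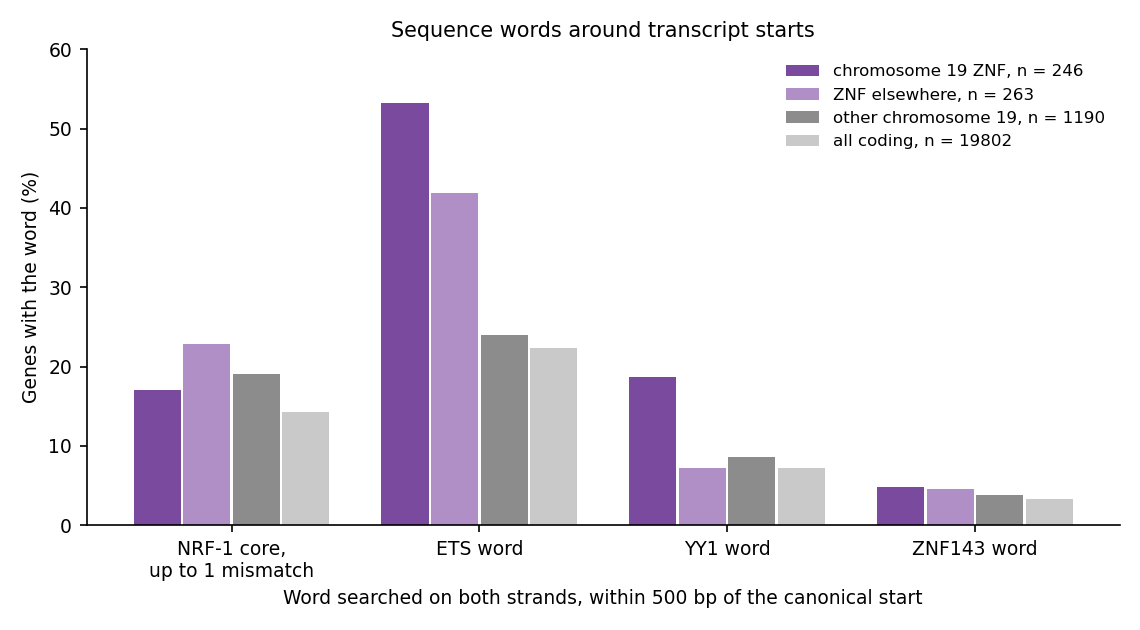
Share of genes (y axis, percent) with each sequence word within 500 bp of the canonical transcript start (x axis), for the 246 chromosome 19 ZNF genes, the 263 ZNF genes on other chromosomes, the other 1190 coding genes of chromosome 19 and all 19802 coding genes. The ETS word reaches 53.3% and the YY1 word 18.7% in the chromosome 19 ZNF genes, while the NRF-1 core at up to 1 mismatch is at 17.1%, between the 14.2% of all coding genes and the 22.8% of ZNF genes elsewhere.

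Base composition moved with the presence of a peak over the family. Within 500 bp of the canonical start, the observed-to-expected CpG ratio had a median of 0.73 in genes with a siControl peak and 0.63 in genes without. Of 83 genes with a ratio above 0.75, 75 had a peak (90.4%), against 83 of 112 between 0.6 and 0.75 (74.1%) and 25 of 51 at 0.6 or below (49.0%). The other genes of chromosome 19 had the same order, with 92.8%, 82.0% and 22.4%. In the ZNF101 to ZNF254 cluster the median ratio was 0.54 and 28 of 37 genes were at 0.6 or below, of which 11 had a peak (39.3%). Within that cluster 3 of 8 genes between 0.6 and 0.75 had a peak (37.5%), as did the 1 gene above 0.75. These are too few to show whether the ratio went with a peak there. Outside the cluster 14 of 23 genes at 0.6 or below had a peak (60.9%).

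Duplicated promoters also hold sequence that occurs more than once in the genome. The share of 31-base words in the same window that occur more than once, on either strand, was highest in ZNF773 (46.5%), ZNF28 (46.3%) and ZNF468 (46.0%). A second copy within the window also counted. All 3 genes had a promoter peak in both lists. ZNF773 had a −log10 q of 4.67 in siControl and 5.76 in siAATF, and ZNF468 had 33.1 and 33.7. ZNF28 had 36.9 in siControl and 33.7 in siAATF, but from different peaks, since its best siAATF peak was the one at the neighbouring ZNF468.

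Over the family, a siControl peak was present in 100 of 121 genes with a repeated share of up to 1% (82.6%), 54 of 69 between 1 and 10% (78.3%) and 29 of 56 above 10% (51.8%). Of the 56 genes above 10%, 25 were in the ZNF101 to ZNF254 cluster, where 6 had a peak, and 31 were elsewhere, where 23 had one (74.2%). The median repeated share of that cluster was 14.3%, against 0.62% in the rest of the family. How reads with several placements were treated is not given in the sources used here, and its part in the missing peaks was not tested.

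Presence of the core went with peak strength. In siControl the median −log10 q was 60.9 for the 41 genes whose best peak held a core at up to 1 mismatch. It was 9.56 for the 142 genes without a core. Of the 20 strongest zinc finger promoters by −log10 q, 17 held it, and 0 of the 20 held the control palindrome. By fold enrichment the median percentile rank was 70.4 with the core and 51.4 without. Peaks with the core were wider, with a median of 1029 bp against 706 bp, and the 7 peaks with the control palindrome had a median −log10 q of 24.2. The core was searched over the whole peak, so a wider peak had more bases in which to hold it. Strength with and without the core was not compared at equal width.

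Over all coding genes, too, the 2934 peaks with the core had a higher median −log10 q, at 66.5 against 12.3 for the 9165 without. In the zinc finger genes the site was within 100 bp of the canonical start in 23 of 41 peaks and within 100 bp of the peak midpoint in 24, and it was upstream of the start in 32. Several peaks held no core yet ranked high, as in ZNF420 and ZNF497 above. ZNF324, the other gene of the strongest 20 without a core, had a −log10 q of 79.1 in siControl and 68.0 in siAATF and was named after its values were seen.

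**Figure D4:**
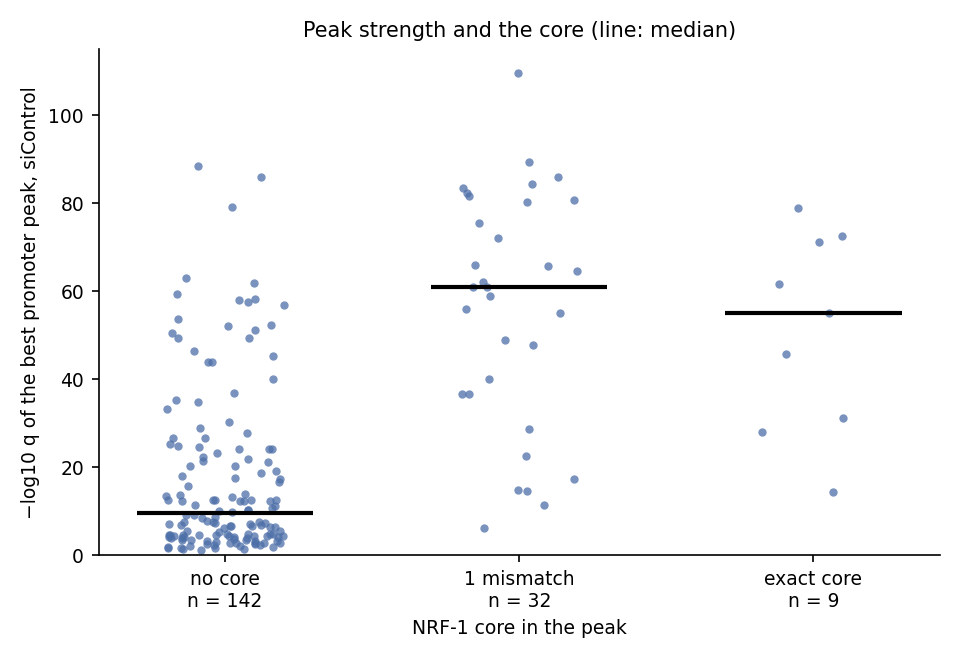
−log10 q of the best siControl promoter peak (y axis) of the 183 zinc finger genes that have one, grouped by the NRF-1 core in the peak (x axis: none, 1 mismatch, exact), with a point for each gene and a line at the median. The 142 peaks without the core have a median of 9.56, and the strongest peak, ZNF583 at 110, has 1 mismatch.

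After AATF depletion nearly all zinc finger promoters that had a peak still had one. Peaks were present in both lists at 180 genes, in siControl alone at 3 genes, in siAATF alone at 5 and in neither at 58. Over all coding genes 1.62% had a peak in siControl alone and 1.17% in siAATF alone, and the zinc finger genes had 1.22% and 2.03%. In 175 of the 180 genes the best peaks of the lists overlapped, and the exceptions, ZNF442, ZNF613, ZNF28, ZNF580 and ZNF581, had different best peaks in each list.

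The 8 genes with a peak in 1 list were weak in that list. In siControl alone, ZNF599 had a −log10 q of 1.91, ZNF283 had 1.43 and ZNF808 had 2.37. In siAATF alone, ZNF91 had 3.82, ZNF888 had 2.92, ZNF625 had 2.50, ZNF317 had 2.45 and ZNF836 had 2.06. ZNF91 is known as a repressor of SVA retrotransposons, and ZNF808 as a gene needed for development of the pancreas. None of the 8 reached a −log10 q of 5 or a percentile rank above 36.0, so each lay in the weaker part of its list.

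The order of the peaks shifted in both directions. Over the 180 genes with peaks in both lists the median change in percentile rank (siAATF minus siControl) was −0.25, with 87 genes higher and 93 lower in siAATF. The change exceeded 20 points in 21 genes (11.7%), against 6.63% of all coding genes with peaks in both lists. Ranked by −log10 q in place of fold, it exceeded 20 points in 5 of the 180 genes (2.78%). Of the 21, 14 rose in rank and 7 fell, where over all coding genes 436 rose and 345 fell. The rank changes are differences between 2 lists with no replicate behind them.

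ZNF223 had the largest rise, from a percentile rank of 4.70 in siControl to 62.2 in siAATF, with a −log10 q of 1.36 and 8.46. ZNF841 moved from 45.0 to 92.7 in rank with a −log10 q of 5.57 and 19.6. Both started from weak peaks, and the siControl peak of ZNF223 was 200 bp wide. ZNF221 moved from 25.2 to 60.5, ZNF606 from 9.37 to 39.6 and ZNF772 from 6.73 to 36.6, and none of these 3 had a −log10 q above 8.23 in either list. ZNF221 and ZNF223 are both in the ZNF575 to ZNF296 cluster, where the median change in rank was −0.26 points, with 8 genes higher and 11 lower in siAATF.

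ZNF616 had the largest fall, from a percentile rank of 75.9 to 38.4, with a −log10 q of 12.3 and 6.54. Its peak was 385 bp wide in siControl and 1054 bp in siAATF. ZNF347 fell from 78.6 to 44.1 in rank and from 14.9 to 7.22 in −log10 q. ZNF587B went from 43.9 to 17.0, ZNF121 from 60.8 to 34.4 and ZNF227 from 28.3 to 5.64. All 5 still had a peak in siAATF, and ZNF227 was the weakest of them there with a −log10 q of 1.56.

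**Figure D5:**
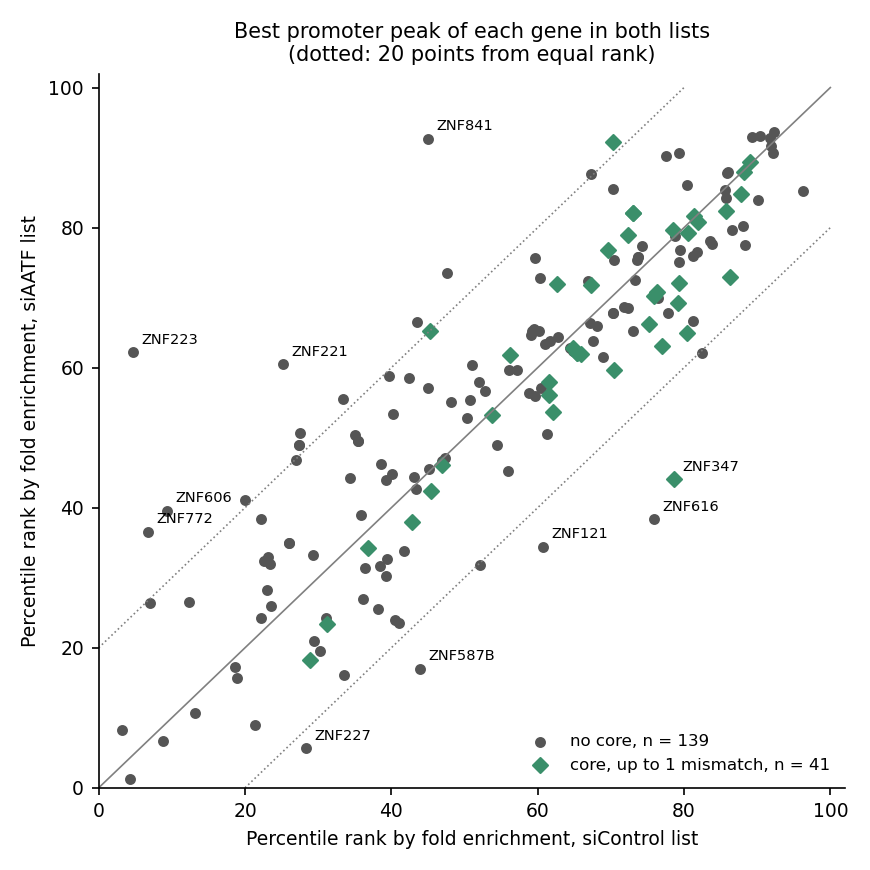
Percentile rank by fold enrichment of the best promoter peak in the siControl list (x axis) and the siAATF list (y axis) for the 180 zinc finger genes with a peak in both, with diamonds for peaks that hold the core at up to 1 mismatch. 21 genes lie beyond the dotted lines at 20 points from equal rank, among them the 5 largest rises, led by ZNF223, and the 5 largest falls, led by ZNF616, and only 2 of the 41 genes with a core are beyond the lines.

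Changes of rank were found mainly at weak peaks. Of 45 genes with a siControl −log10 q under 5, 9 rose and 1 fell by more than 20 points, with a median change of 5.20 points. Of 56 genes from 5 to under 20, 5 rose and 5 fell, and of 79 genes at 20 or more, 1 fell and 0 rose. Over all coding genes the share beyond 20 points was 15.9%, 9.69% and 1.62% in the same ranges, and in the zinc finger genes it was 22.2%, 17.9% and 1.27%. With the core, 2 of 41 genes changed by more than 20 points (ZNF347 and ZNF585A, the latter named after its values were seen), and without it 19 of 139 did. Over all coding genes, too, those under 5 rose more often than they fell by more than 20 points (210 against 44). The ranges were set by the siControl value and hold only genes with peaks in both lists. A weak siControl peak that was lost is not counted, and a low rank has more room to rise than to fall. The direction of change by range is thus partly set by the grouping and was not tested.

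The −log10 q moved differently from the rank by fold. It was higher in siAATF in 91 of the 180 genes (50.6%), against 34.3% of all coding genes with peaks in both lists. A −log10 q of 5 was crossed upwards in 18 genes (10%) and downwards in 1 gene (0.56%), against 3.38% and 3.4% of all coding genes. Only genes under 5 in siControl could cross upwards, and the groups differed in how many they held. These were 45 of the 180 zinc finger genes, of which 18 crossed, and 1596 of the 11778 coding genes, of which 398 crossed. When peaks were ranked by −log10 q in place of fold, the median change was 1.89 points, with 126 of 180 genes higher in siAATF (70.0%), against 55.6% of all coding genes. The direction of the median change thus depended on which column ranked the peaks. Within the range of siControl −log10 q from 5 to under 20, the value was higher in siAATF in 35 of 56 zinc finger genes (62.5%) and in 43.3% of all coding genes.

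The upward crossings were spread along the chromosome. They were 5 from ZNF628 to ZNF446, 4 each from ZNF565 to ZNF573 and from ZNF575 to ZNF296, and 1 each in the other 4 large clusters. The remaining 1 was in the small groups. The median change in rank by fold was 4.92 points from ZNF565 to ZNF573 and −6.83 points from ZNF101 to ZNF254, the highest and lowest of the 7 clusters, where 15 of 26 and 5 of 15 genes were higher in siAATF. Ranked by −log10 q, the median changes were 4.17 and −0.10 points, and the highest was 4.52 from ZNF557 to ZNF846.

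The number of fingers in the protein had close medians in bound and unbound genes, while a KRAB pattern was less frequent in bound genes. The canonical coding sequences of 242 of the 246 genes held from 1 to 36 zinc fingers, counted as the spaced C2H2 pattern. The median was 12.5 in genes with a siControl peak and 12 in genes without. The KRAB pattern was found in 106 of 180 genes with a siControl peak (58.9%) and in 45 of 62 without (72.6%). In the ZNF genes elsewhere the shares were 24.9% with a peak and 45.3% without. The pattern is strict and was not checked against annotated KRAB domains. The gene with the most fingers, ZNF208, lay in the stretch without peaks.

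NRF-1 peaks inside zinc finger genes but away from all coding promoters numbered 6 in siControl and 5 in siAATF, among 426 chromosome 19 peaks away from promoters in each list. No rate per gene length was computed for other genes. The strongest was at ZNF584, where a peak 7.26 kb upstream of the canonical start overlapped the 5′ edge of the annotated gene. It had a −log10 q of 64.7 (siControl) and 61.9 (siAATF), above the 21.1 and 20.8 of the best coding promoter peak of the same gene. ZNF83 had a peak 35.7 kb downstream of its canonical start with a −log10 q of 17.7 and 19.7. The third was shared by the overlapping genes ZNF586 and ZNF552 in siControl (2.36) and was at ZNF473 in siAATF (2.97), so that only ZNF584 and ZNF83 held strong peaks of this kind.

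The partners through which KRAB zinc finger proteins act were looked at from a list of 16 genes for TRIM28, its methyltransferase and chromatin partners, the HUSH complex and DNA methylation. A promoter peak was present in both lists for 15 of the 16, against 59.5% of all coding genes, and ATRX, a chromatin remodeller, had none. TRIM28, the corepressor itself and also on chromosome 19, had a −log10 q of 95.2 in siControl and 82.0 in siAATF, with a percentile rank of 55.2 and 51.7 and a core at 1 mismatch. SETDB1, which methylates histone H3 lysine 9, had a percentile rank of 95.5 and 89.2, and TASOR of the HUSH complex had 93.5 and 99.3.

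Among the other partners, DNMT1, the maintenance DNA methyltransferase, had a −log10 q of 96.8 and 90.3, and UHRF1, which recruits it, had 85.9 and 69.2. HDAC1 and HDAC2, histone deacetylases, had ranks of 97.8 and 93.2 in siControl and 97.6 and 96.1 in siAATF. The lowest −log10 q of the 15 was that of MPHOSPH8, the chromodomain subunit of HUSH, at 6.86 and 5.28. CBX5, which encodes HP1 alpha, had different best peaks in the lists, with ranks of 98.6 and 44.6 that are not those of 1 site. ATF7IP, CBX1, CBX3, CHD3, MORC2 and PPHLN1 ran from a rank of 32.4 (CBX3) to 96.4 (ATF7IP) in siControl. The median siControl rank of the 15 was 68.9, against 59.6 for the zinc finger genes and 63.2 for all coding genes.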

How the data were processed

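NRF-1 ChIPmentation libraries of U251 cells (siControl, siAATF) were aligned by the authors to hg19 with Bowtie2, and MACS2 called broad peaks in a pipeline made for ATAC-seq. The immunoprecipitation was described as done in duplicate. A control library, whether duplicates were pooled and the treatment of multiply placed reads are not given in the sources used here. For each peak the deposited lists hold fold enrichment (a ratio over local background), −log10 p and −log10 q as written by MACS2, and a display score derived by the authors' software. The −log10 p and the score were not used. Peaks were matched to GENCODE release 44 (lifted to GRCh37) with Python 3.11.15, numpy 2.4.6, pandas 2.3.3, scipy 1.17.1 and pysam 0.24.0, with an overlap of at least 1 base. Coordinates are 1-based on hg19. Words were searched in the GRCh37 primary assembly, in peaks or within 500 bp of the canonical start, and matching was tested on simulated intervals. Fingers were counted, and the KRAB pattern (Y, R/K/Q, D/E/N, V, M, L/R/Q, E/D) was searched, in translated canonical coding sequences. 3 read-through genes with hyphenated symbols fell outside the symbol rule.

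Genes, gene lists and comparisons were chosen with earlier results of these data known. Genes named were the 8 with the highest siControl −log10 q, those with a peak in 1 list, the 5 largest rises and falls in rank, the 8 strongest with an exact core, the 3 with most repeated 31-base words, the longest run without a peak, the corepressor list, and the 3 strongest peaks inside genes in each list. ZNF653, shown with the exact cores, and other genes marked in the text were added after their values were seen. There was no test between conditions, since there was 1 list per condition.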

Additional observations from a re-analysis of the deposited data

How the results depend on the processing

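Of 56 values computed for 10 results under 11 alternatives, 42 stayed within counting error or 1.5 times the main count, 13 moved and 1 changed sign. A −log10 q of at least 5 lowered the share of genes with a promoter peak to 54.9% in siControl and 61.8% in siAATF, and the 10000 strongest peaks of each list lowered it to 46.7% and 50.4%. The stricter −log10 q left 1 gene in siControl alone and 18 in siAATF alone, and the 10000 strongest peaks left 3 and 12. Over all coding genes the share at a −log10 q of at least 5 was 51.5% in both lists. Their shares in 1 list alone were not computed at these cut-offs, so these counts have no background to be read against. The stricter −log10 q raised the median percentile rank to 67.6 and 64.6. Adding ZFP, ZSCAN, ZIM and ZIK genes gave 5 in siControl alone. Ranking by −log10 q turned the median rank change from −0.25 to 1.89 points and lowered the share beyond 20 points to 2.78%. Allowing 1 mismatch raised the share with the core to 22.4% and 22.2%. The depth of the libraries is unknown, and its effect on the number of weak peaks was not tested. No paired analysis was possible because each condition had a single list.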
